A study of Mus musculus with 5 samples.

Results

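The genes described here encode the core subunits of the Polycomb repressive complexes, and the measurement is acetylation of histone H3 at lysine 14 (H3K14ac) over and beside them in mouse blood progenitors with and without HBO1. The 10 genes Ezh1, Ezh2, Eed, Suz12, Bmi1, Ring1, Rnf2, Cbx2, Cbx7 and Cbx8 were chosen by function and looked up by Entrez GeneID among the 27179 genes of the deposited count tables, and all 10 were found. The assay was CUT&Tag: an antibody (abcam ab52946) brings the Tn5 transposase to the mark, and DNA nearby is cut and tagged. The cells were LSK cells, the marrow fraction without lineage markers and with Sca-1 and Kit that holds stem cells and early progenitors, isolated by FACS from male C57BL/6 mice. Knockout libraries had the genotype Hbo1def/def; T/+ and control libraries Hbo1def/+; T/+, with 2 libraries in each group. Both groups carried T/+, an element the labels do not explain, and both were given poly(I:C) to induce Mx1-cre, a recombinase whose promoter answers to interferon and is not restricted to stem cells. The controls were thus heterozygous and not wild type. The labels give no age and do not tell whether each library is a different mouse, so the p-values reflect the spread between these libraries alone. A library for HBO1 itself in control cells was not analysed here.

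Polycomb repressive complex PRC2 methylates histone H3 at lysine 27, with EZH1 or EZH2 as the enzyme and EED and SUZ12 as the partners it needs to work. PRC1 attaches ubiquitin to histone H2A through RING1 or RNF2 (also called RING1B), which pair with a PCGF protein such as BMI1, while CBX proteins in the same complex bind the mark left by PRC2. Both complexes keep developmental genes silent, and in mouse marrow BMI1 is known for sustaining the self-renewal of adult stem cells, in part by holding the Cdkn2a locus silent. HBO1 (KAT7) is an acetyltransferase that writes H3K14ac.

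Promoter sequences of 5 members are shown because H3K14ac upstream of the gene rose in the first 4 and did not pass the test in the fifth, Cbx7. They are RefSeq sequences on build GRCm38.p6, read 5′ to 3′ on the strand of the gene and 300 bases long, and capitals mark each CG. The Ezh2 promoter lies at chr6:47594981-47595280 on the minus strand, that of Eed at chr7:89980927-89981226 on the minus strand, and that of Bmi1 at chr2:18676768-18677067 on the plus strand. The Cbx8 promoter lies at chr11:119040864-119041163 and that of Cbx7 at chr15:79932597-79932896, both on the minus strand.
Ezh2: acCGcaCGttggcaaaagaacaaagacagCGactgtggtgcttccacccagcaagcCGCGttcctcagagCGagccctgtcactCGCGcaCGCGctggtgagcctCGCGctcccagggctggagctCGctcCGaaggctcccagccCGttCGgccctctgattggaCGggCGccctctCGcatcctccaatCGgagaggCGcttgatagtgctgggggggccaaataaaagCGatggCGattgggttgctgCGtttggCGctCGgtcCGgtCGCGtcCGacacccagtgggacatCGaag
Eed: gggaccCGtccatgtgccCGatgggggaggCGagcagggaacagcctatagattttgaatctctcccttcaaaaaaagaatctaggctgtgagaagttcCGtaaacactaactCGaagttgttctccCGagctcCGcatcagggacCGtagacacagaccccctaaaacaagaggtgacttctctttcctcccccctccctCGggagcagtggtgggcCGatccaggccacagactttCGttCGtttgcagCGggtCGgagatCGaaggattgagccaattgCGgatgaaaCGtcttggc
Bmi1: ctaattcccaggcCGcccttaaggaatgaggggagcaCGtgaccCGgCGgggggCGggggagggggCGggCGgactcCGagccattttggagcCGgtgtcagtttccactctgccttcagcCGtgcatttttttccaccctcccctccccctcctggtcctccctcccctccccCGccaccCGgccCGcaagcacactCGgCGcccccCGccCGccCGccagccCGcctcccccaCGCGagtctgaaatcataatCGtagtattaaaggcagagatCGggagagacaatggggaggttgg
Cbx8: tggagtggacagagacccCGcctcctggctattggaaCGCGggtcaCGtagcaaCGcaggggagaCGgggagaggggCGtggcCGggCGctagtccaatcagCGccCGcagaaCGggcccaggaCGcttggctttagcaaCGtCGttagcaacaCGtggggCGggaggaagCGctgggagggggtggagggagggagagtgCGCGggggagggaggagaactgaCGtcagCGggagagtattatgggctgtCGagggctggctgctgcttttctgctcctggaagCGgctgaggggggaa
Cbx7: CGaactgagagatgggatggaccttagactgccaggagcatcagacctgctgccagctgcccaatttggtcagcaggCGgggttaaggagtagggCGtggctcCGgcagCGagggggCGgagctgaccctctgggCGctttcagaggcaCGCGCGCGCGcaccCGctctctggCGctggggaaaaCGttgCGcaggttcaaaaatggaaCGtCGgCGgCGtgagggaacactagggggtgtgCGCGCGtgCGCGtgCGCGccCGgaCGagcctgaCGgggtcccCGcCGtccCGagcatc
Of the 10 members 9 had an entry in this table, all but Cbx2. The number of CG per promoter ran from 17 in Eed to 41 in Suz12 with a median of 30, against a median of 7 over the 27025 promoters of the table. All 9 had a ratio of observed to expected CG of at least 0.6, which 36.5% of all promoters reached. Cbx7, with 33 CG, held more than Ezh2 with 31, Cbx8 with 24, Bmi1 with 23 and Eed with 17. The relation between the number of CG and the change was not tested.

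The tables hold whole-number read counts over 3 region classes for each gene: 5 kb ahead of the start site (upstream), the gene body, and 5 kb past the end (downstream). Upstream totals were 1065978 and 869859 in the knockout libraries and 1164409 and 1078248 in the controls. Gene body totals were 4723549 and 6031189 in the knockout libraries and 12386891 and 10572534 in the controls. Values below are CPM of the region class after TMM normalisation, a scale on which regions of different length are not comparable. They are relative to the counts of the library, so a higher value does not show that the absolute amount of the mark rose. A gene was called where edgeR's quasi-likelihood test gave an adjusted p under 0.05 over all genes of the class. Upstream 24.0% of 23200 genes tested were called higher in knockout cells and 14.3% lower, and over gene bodies the shares were 23.1% and 15.2% of 21393 genes. Downstream they were 10.8% and 2.29% of 21566. The balance of calls moves with the scaling: upstream, library totals gave 4369 higher and 3983 lower, pooled totals of the 3 classes 7668 and 458, and scaling on olfactory and vomeronasal receptor genes 7188 and 39, against 5557 and 3328 with TMM. Over gene bodies the same scalings gave 6377 and 990, 5666 and 1360, and 4424 and 191, against 4935 and 3260, and downstream library totals gave 2115 and 943 and receptor genes 2098 and 61, against 2338 and 493. The median log2 fold of all genes upstream was -0.27, 0.46 and 0.83 under these scalings and -0.09 with TMM, and over gene bodies 0.36, 0.24 and 0.66 against 0.02. The downstream median was -0.23 with library totals and 0.27 with receptor genes, against -0.03. None of these scalings turned the sign of a member's upstream or gene body log2 fold.

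Kat7, which encodes HBO1, had upstream values of 19.3 and 24.4 CPM in knockout libraries against 45.1 and 40.6 CPM in controls, a log2 fold of -0.97 ± 0.47 (SE) that missed the threshold (edgeR adjusted p = 0.0872). Over its gene body the values were 88.2 and 39.1 CPM in knockout libraries against 30.7 and 30.1 CPM in controls (log2 fold 1.06 ± 0.32, edgeR adjusted p = 0.00668). That call was lost without knockout replicate 1 (0.39), without control replicate 1 (1.08) or 2 (1.05), with receptor gene scaling (1.78), and with the replicate block without (0.95) or with a GC correction (0.99). An acetylation profile over windows of this size does not test whether the gene was deleted.

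Relative to the counts of the library, H3K14ac at and beside the Polycomb genes was higher in knockout cells at part of the members and called lower at none. Upstream 9 of the 10 members were tested and 4 rose, Bmi1, Cbx8, Ezh2 and Eed, by log2 folds of 1.70 to 2.26. Over gene bodies all 10 were tested and 6 rose, Ring1, Cbx8, Eed, Bmi1, Suz12 and Cbx7, by 1.16 to 2.78. Downstream 7 were tested and Bmi1 alone rose. Of all genes tested 24.0% rose upstream, 23.1% over gene bodies and 10.8% downstream. No member was lower in any class even at an unadjusted p under 0.05, by edgeR, by DESeq2 or by limma-trend, and the last 2 tools called 4, 6 and 1 members higher in the 3 classes as edgeR did. The median log2 fold of the tested members was 0.87 upstream, 1.50 over gene bodies and 0.15 downstream, against -0.09, 0.02 and -0.03 over all genes. Among genes with CG-rich promoters 43.1% of 8294 rose upstream and 3.77% fell, and 4 of the 8 members with such a promoter that were tested upstream rose, near that share. Over the gene bodies of that kind 36.3% of 8465 rose and 8.39% fell, and 6 of the 9 such members rose. Downstream 14.4% of 7490 rose and 1.38% fell, and 1 of the 6 such members tested rose.

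Many of these calls were lost with 1 library left out. Without control replicate 1 edgeR called none of them: 0 members upstream (2 at an unadjusted p under 0.05), 0 over gene bodies (3) and 0 downstream (1), with log2 folds still of 1.56 to 2.04 at the 4 upstream members. Without control replicate 2 only Ezh2 (2.77) was called upstream, and without knockout replicate 1 only Bmi1. Without knockout replicate 2 the upstream calls were 6, with Suz12 (1.55) and Rnf2 (1.51) added.

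**Figure D1:**
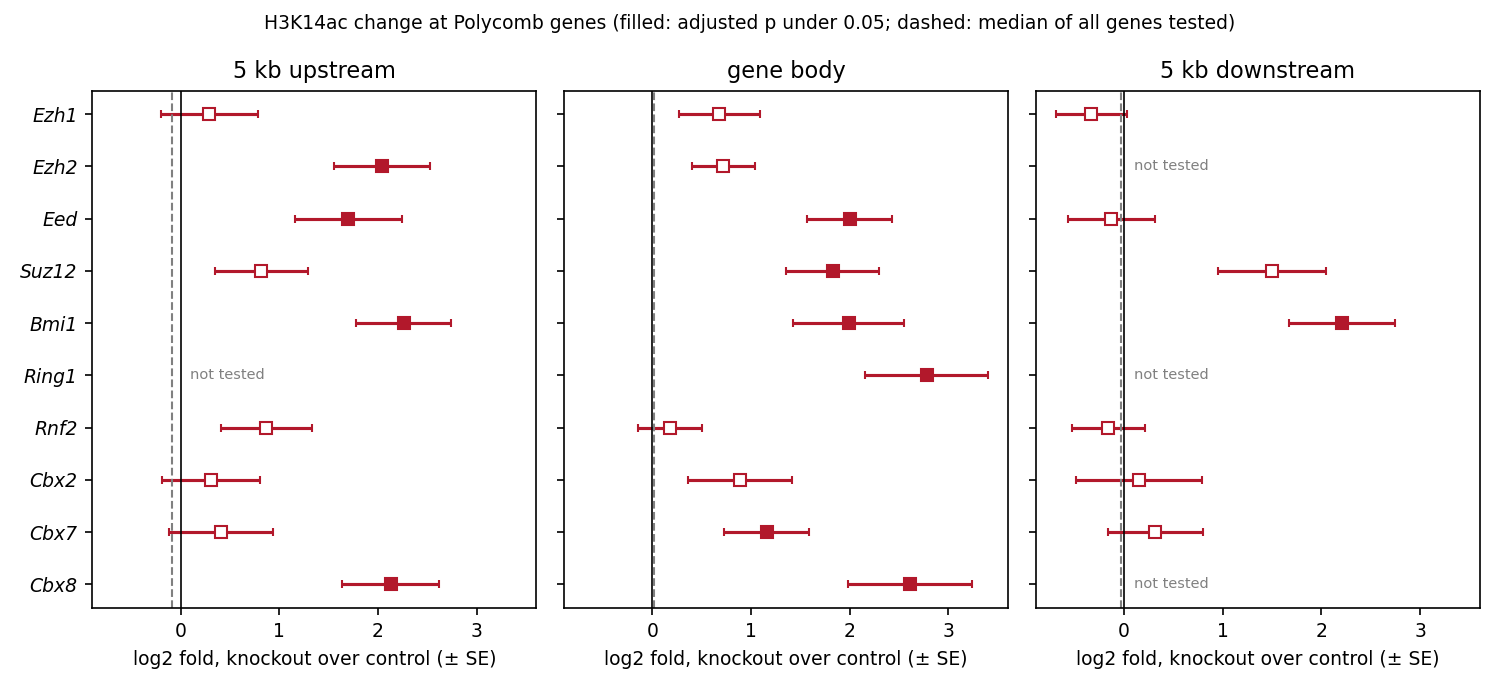
Log2 fold of H3K14ac, knockout over control, for each Polycomb gene upstream, over the gene body and downstream (points, edgeR estimate; bars, 1 SE), with filled points for edgeR adjusted p under 0.05 and the median of all genes as a line. Points lie to the right of 0 for every tested member upstream and over the gene body, while downstream only Bmi1 is called and Ezh1, Eed and Rnf2 lie to the left of 0.

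In PRC2, the catalytic gene Ezh2 rose upstream, and its paralog Ezh1 passed the test in no class. Ezh2, which encodes the main methyltransferase of dividing cells (chromosome 6, 47530274 to 47595270, minus strand), had upstream values of 73.9 and 34.3 CPM in knockout libraries against 7.81 and 18.2 CPM in controls. Both knockout libraries lay above both controls, and the means were 54.1 ± 27.9 and 13 ± 7.37 CPM (SD, n = 2 each). The log2 fold was 2.04 ± 0.49 (edgeR adjusted p = 3.4e-04); the call was lost without knockout replicate 1 (1.41, edgeR adjusted p = 0.169). Over the Ezh2 gene body the values were 50.7 and 40.4 CPM in knockout libraries against 26.7 and 28.5 CPM in controls, again with no overlap, and the log2 fold of 0.72 ± 0.32 missed the threshold (edgeR adjusted p = 0.0617). That gene body value passed with library totals (1.07), pooled totals (0.93), receptor genes (1.39) and a GC correction (0.83). The Ezh2 downstream window shares 82.6% of its bases with that of its neighbour Cul1 and held 5 reads or fewer in each library, so it was not tested. Ezh1, the paralog associated with non-dividing cells (chromosome 11, 101191115 to 101226463, minus strand), had 27.3 and 23.3 CPM upstream in knockout libraries against 16.5 and 24.9 CPM in controls, and the groups overlapped (log2 fold 0.29 ± 0.49, edgeR adjusted p = 0.652). Its gene body had 20.3 and 17.7 CPM in knockout libraries against 6.72 and 17 CPM in controls (0.68 ± 0.41, edgeR adjusted p = 0.174). The difference between Ezh1 and Ezh2 was not tested.

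Eed encodes the subunit that binds methylated lysine 27 and stimulates the enzyme (chromosome 7, 89954654 to 89980976, minus strand). Upstream it had 151 and 88.6 CPM in knockout libraries against 33 and 40.6 CPM in controls. Among members with at least 1 kb of unshared upstream window it had the highest level per kb in all 4 libraries. The log2 fold was 1.70 ± 0.54 (edgeR adjusted p = 0.00832), a call lost when any library other than knockout replicate 2 was left out. Its gene body had 28.1 and 15.5 CPM in knockout libraries against 5.14 and 5.74 CPM in controls (2.00 ± 0.43, edgeR adjusted p = 2.1e-04), while the 5 kb downstream had 31.7 and 18.5 CPM in knockout libraries against 27.4 and 26.3 CPM in controls and did not pass. Suz12 encodes the scaffold of PRC2 (chromosome 11, 79993106 to 80034123, plus strand). Its gene body had 18.7 and 13.4 CPM in knockout libraries against 2.57 and 6.43 CPM in controls and rose by 1.83 ± 0.47 (edgeR adjusted p = 0.00176). Upstream of Suz12 the knockout libraries disagreed, with 59.1 and 18.8 CPM against 21.7 and 22.4 CPM in controls. Knockout replicate 1 lay above both controls and knockout replicate 2 below them, and the log2 fold of 0.82 ± 0.47 (edgeR adjusted p = 0.15) became -0.19 without knockout replicate 1. Downstream Suz12 had 20.5 and 26.4 CPM in knockout libraries against 5.48 and 11.2 CPM in controls, without overlap, and missed the threshold (1.50 ± 0.55, edgeR adjusted p = 0.0863); it passed with a GC correction (1.67).

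**Figure D2:**
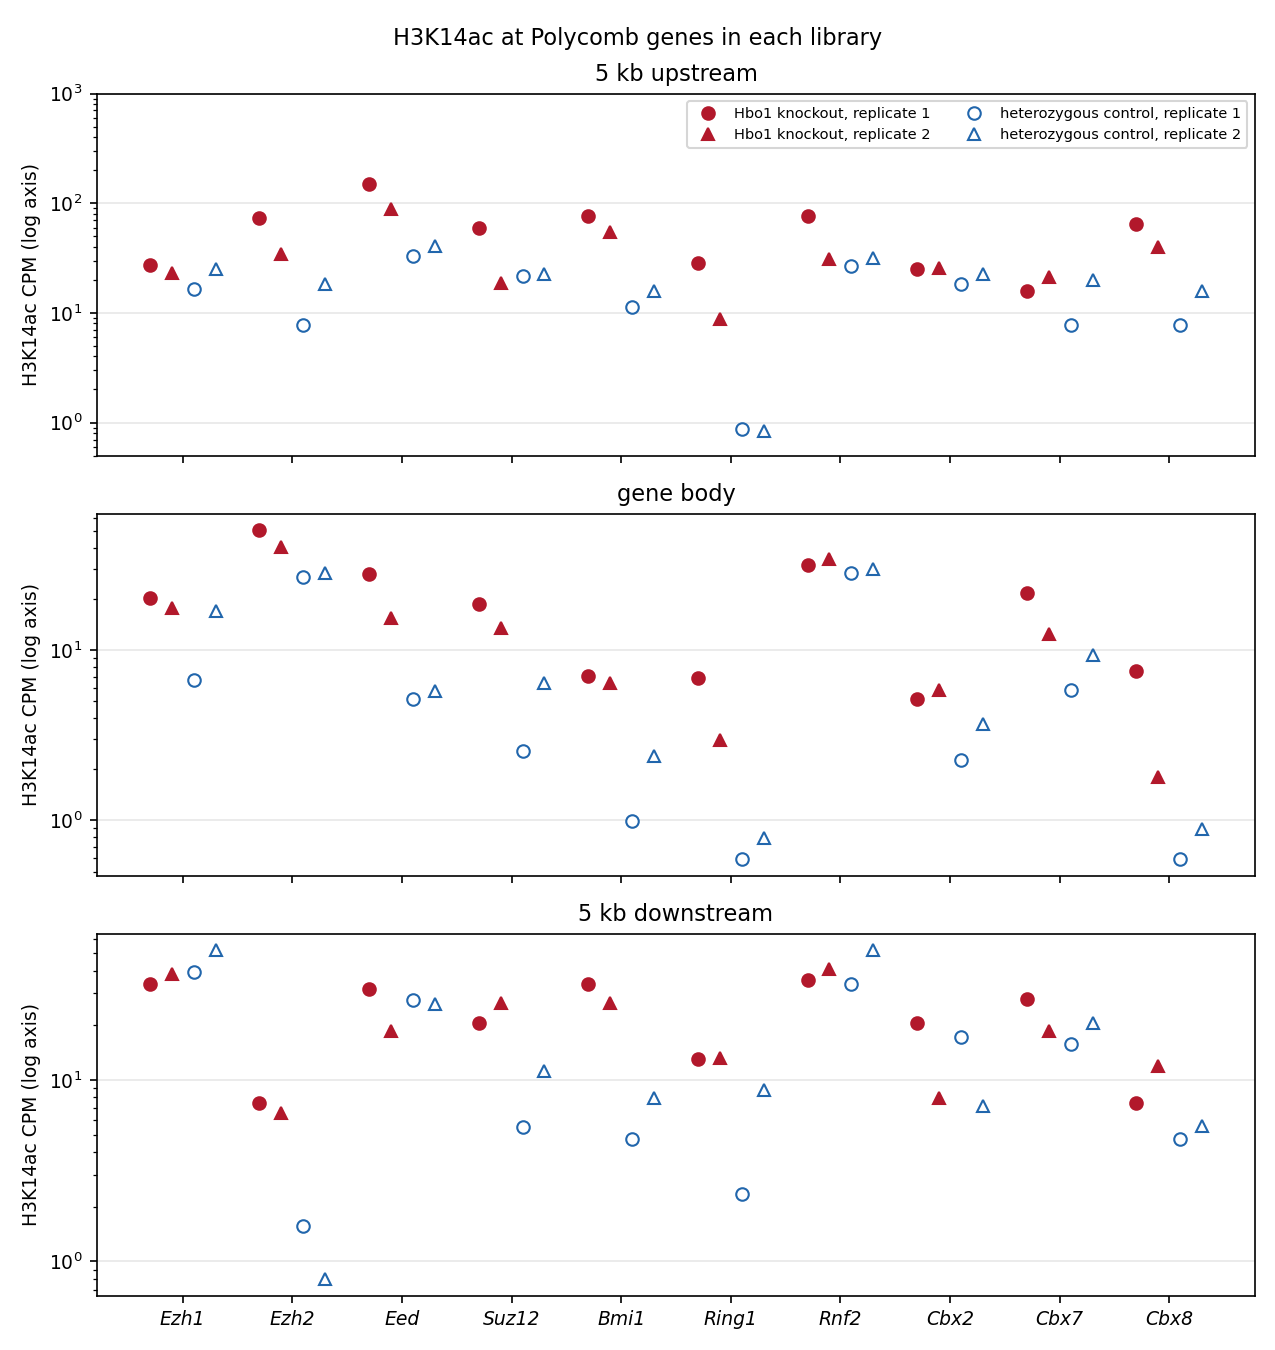
H3K14ac of each Polycomb gene in the 4 libraries, in CPM on a log scale, upstream, over the gene body and downstream, with knockout libraries (filled) to the left of controls (open); each point is 1 library. Over the gene body both knockout points lie above both control points for all 10 genes, and upstream the 2 knockout points of Suz12 and of Rnf2 are far apart.

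In PRC1, Bmi1 was the only member called in all 3 region classes. Bmi1 encodes the PCGF partner of the ubiquitin ligase (chromosome 2, 18677018 to 18686629, plus strand). Upstream it had 76.1 and 54.3 CPM in knockout libraries against 11.3 and 15.7 CPM in controls, with means of 65.2 ± 15.5 and 13.5 ± 3.15 CPM (SD, n = 2 each), and rose by 2.26 ± 0.48 (edgeR adjusted p = 6.2e-05). Its gene body had 7.03 and 6.41 CPM in knockout libraries against 0.988 and 2.38 CPM in controls (1.99 ± 0.56, edgeR adjusted p = 0.0039). Downstream it had 33.6 and 26.4 CPM in knockout libraries against 4.7 and 7.98 CPM in controls (2.21 ± 0.54, edgeR adjusted p = 0.0108). In each class both knockout libraries lay above both controls. The downstream call was lost without knockout replicate 1 (2.05) and without control replicate 1 (1.88). The upstream window of Bmi1 also holds the gene Commd3, whose body rose by 2.42 ± 0.57 (edgeR adjusted p = 6.2e-04), so acetylation upstream of Bmi1 and over Commd3 cannot be told apart.

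The ligase genes Ring1 and Rnf2 gave different values. Ring1 (chromosome 17, 34020792 to 34024680, minus strand) had gene body values of 6.84 and 2.98 CPM in knockout libraries against 0.593 and 0.792 CPM in controls, the largest gene body log2 fold of the members with TMM (2.78 ± 0.62, edgeR adjusted p = 3.2e-04). With a GC correction it was 1.78, below Eed (2.09), Bmi1 (2.05) and Suz12 (1.99), and with the replicate block as well the call was lost (1.75, edgeR adjusted p = 0.0593). Those values rest on 37 and 20 reads in knockout libraries and 6 and 8 reads in controls. Upstream of Ring1 91.8% of the window is shared with windows of H2-Ke6, Rxrb and Mir219a-1, and the 412 remaining bases held 25 and 8 reads in knockout libraries against 1 and 1 in controls, too few for the test. The neighbouring gene bodies rose too, H2-Ke6 by 3.84 ± 0.62 (edgeR adjusted p = 1.2e-06) and Rxrb by 3.10 ± 0.53 (edgeR adjusted p = 4.6e-06). The body of Slc39a7, which reaches into the Ring1 upstream window, rose by 2.64 ± 0.57 (edgeR adjusted p = 2.1e-04). Rnf2 encodes RING1B (chromosome 1, 151469398 to 151500991, minus strand), and its gene body had 31.6 and 34.1 CPM in knockout libraries against 28.3 and 29.8 CPM in controls. The groups did not overlap, yet the log2 fold was 0.18 ± 0.32 (edgeR adjusted p = 0.674), the smallest of the members. Upstream Rnf2 had 76.1 and 31 CPM in knockout libraries against 26.9 and 31.5 CPM in controls (0.87 ± 0.46, edgeR adjusted p = 0.113), and it passed with a GC correction (1.04) and with pooled totals (1.46). Downstream Rnf2 had 35.4 and 40.9 CPM in knockout libraries against 33.7 and 51.9 CPM in controls, and the groups overlapped (-0.16 ± 0.37, edgeR adjusted p = 0.815). Downstream of Ring1 the counts were 7 and 10 in knockout libraries against 3 and 11 in controls, and the window was not tested.

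Among the CBX genes, whose proteins read the PRC2 mark, Cbx8 rose in both classes where it could be tested. Cbx8 (counted span chromosome 11, 119038436 to 119040913, minus strand) had 64.8 and 39.9 CPM upstream in knockout libraries against 7.81 and 15.7 CPM in controls (2.13 ± 0.49, edgeR adjusted p = 2.1e-04). Its gene body had 7.58 and 1.79 CPM in knockout libraries against 0.593 and 0.891 CPM in controls (2.61 ± 0.63, edgeR adjusted p = 9.2e-04). Knockout replicate 1 was far above knockout replicate 2 there, and without it the log2 fold was 1.28 (edgeR adjusted p = 0.22); the call was also lost with receptor gene scaling (3.33). Cbx7 (counted span chromosome 15, 79915807 to 79932646, minus strand) had gene body values of 21.6 and 12.4 CPM in knockout libraries against 5.83 and 9.3 CPM in controls (1.16 ± 0.43, edgeR adjusted p = 0.0282). Of that body 14.3% is shared with Apobec3, whose own body rose by 2.30 ± 0.39 (edgeR adjusted p = 4.4e-06). The Cbx7 call was lost without either control (0.87 without replicate 1 and 1.54 without replicate 2), without knockout replicate 1 (0.73), with receptor gene scaling (1.83) and with the replicate number as a block (1.15). Upstream Cbx7 had 15.9 and 21.1 CPM in knockout libraries against 7.81 and 19.9 CPM in controls (0.41 ± 0.53, edgeR adjusted p = 0.54), and downstream 28 and 18.5 CPM in knockout libraries against 15.7 and 20.7 CPM in controls (0.32 ± 0.48, edgeR adjusted p = 0.693). Cbx2 (chromosome 11, 119023019 to 119031275, plus strand) passed in no class; upstream it had 25 and 25.5 CPM in knockout libraries against 18.2 and 22.4 CPM in controls (0.31 ± 0.50, edgeR adjusted p = 0.621). The Cbx2 body had 5.18 and 5.82 CPM in knockout libraries against 2.27 and 3.66 CPM in controls, a separation that did not pass the test (0.89 ± 0.53, edgeR adjusted p = 0.173), and the log2 fold was 0.06 with a GC correction. Downstream of Cbx2 the values were 20.5 and 7.91 CPM in knockout libraries against 17.2 and 7.18 CPM in controls, so the libraries within each group differed more than the groups. Cbx2 and Cbx8 lie end to end on chromosome 11, 7.2 kb apart, and share 56.8% of their downstream windows.

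**Figure D3:**
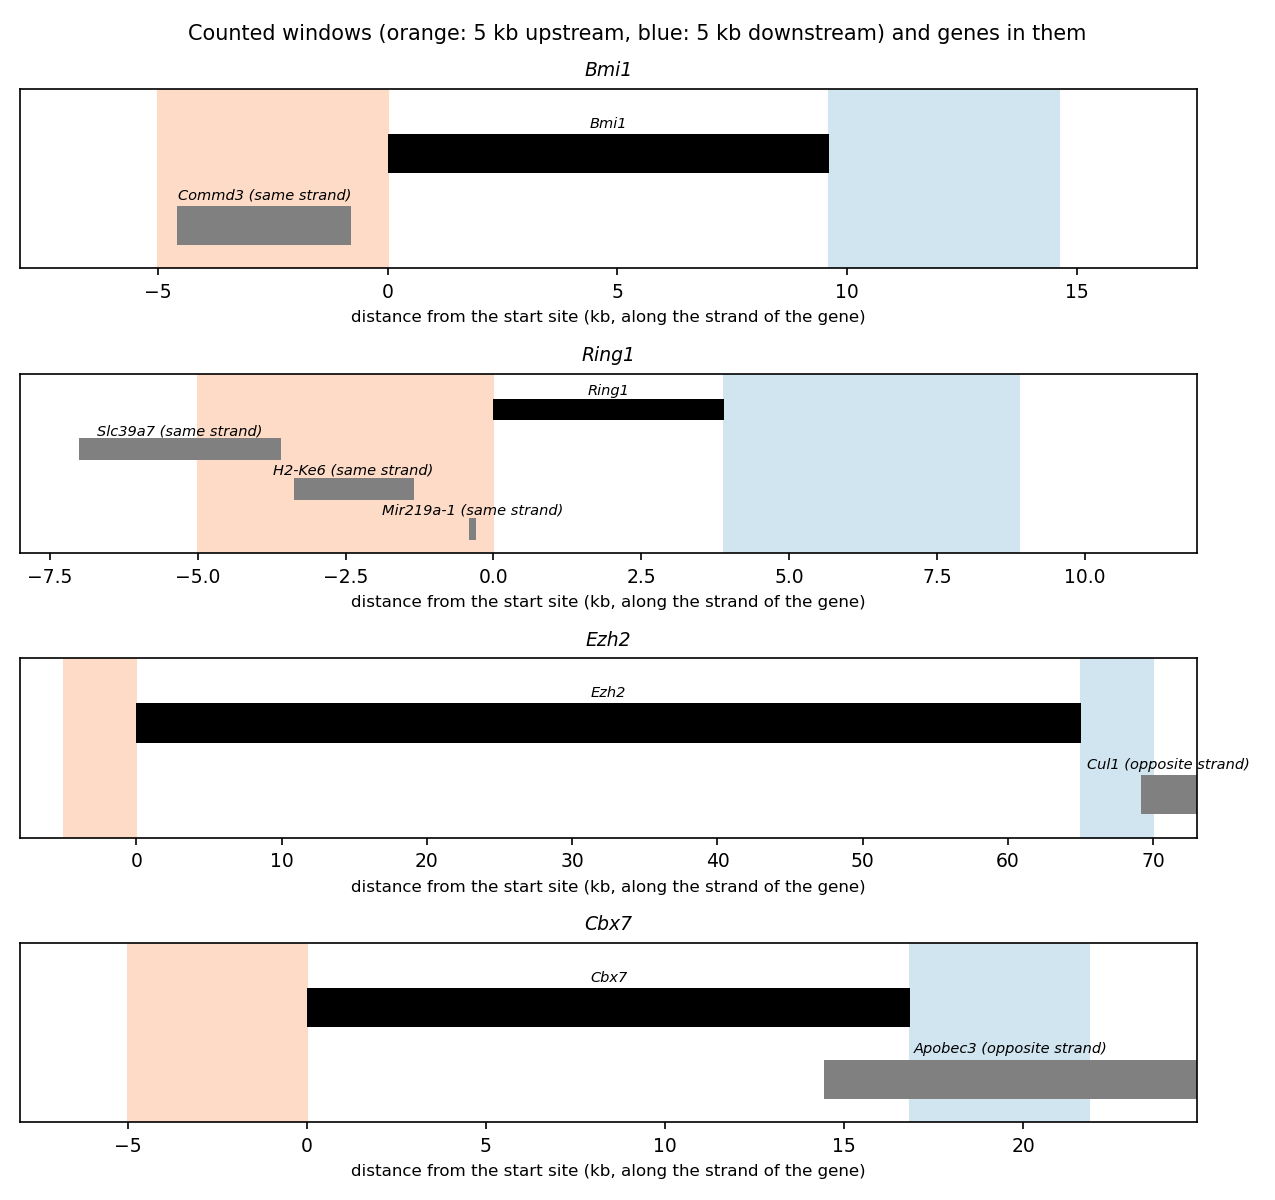
Windows counted for Bmi1, Ring1, Ezh2 and Cbx7 by distance from the start site in kb, with the bodies of neighbouring genes. Commd3 lies inside the upstream window of Bmi1, and H2-Ke6 lies inside that of Ring1.

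The 10 gene bodies were higher in both knockout libraries than in both controls without exception, against 40.6% of all gene bodies tested that were separated in this direction. Upstream 6 of the 10 members were separated this way, 5 of the 9 tested, against 37.8% of genes tested. Downstream 5 members were higher without overlap, 2 of the 7 tested, against 29.9% of genes tested, and 1, Ezh1, was lower (32.7% of genes tested), with 33.6 and 38.2 CPM in knockout libraries against 39.1 and 51.9 CPM in controls.

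To compare levels between genes, counts were divided by the kb not shared with another gene's window and by the library's total over all 3 classes, on the CPM scale. In knockout cells the mean gene body level was highest in Cbx8 (1.6 per kb), then Ring1 (1.07), Cbx7 (1), Rnf2 (0.898), Eed (0.705), Ezh2 (0.601), Bmi1 (0.599), Cbx2 (0.573), Ezh1 (0.461) and Suz12 (0.334). In controls it was highest in Rnf2 (0.682 per kb), then Cbx7 (0.393), Ezh2 (0.315), Cbx2 (0.27), Ezh1 (0.255), Cbx8 (0.224), Eed (0.153), Bmi1 (0.133), Ring1 (0.132) and Suz12 (0.0833). In controls only Rnf2 was separated from its neighbour in this order, and every other neighbouring pair overlapped between libraries. In knockout cells only Ezh1 and Suz12, at the low end, were separated from the gene above them. Olfactory and vomeronasal receptor genes had median gene body levels of 0.205 and 0.288 per kb in knockout libraries and 0.289 and 0.302 in controls. The control means of Cbx2 and of every member after it in the control order lay below both control medians. Upstream these medians were 0.189 and 0.219 in controls. The control means there were 0.258 for Bmi1, 0.233 for Ezh2, 0.209 for Cbx8 and 0.64 for Eed. Against all gene bodies, 9 of 10 members lay below the 50th percentile of level in both controls, and 5 did so in both knockout libraries. The Suz12 body was at the 18.8 and 10.8 percentiles in knockout libraries against 3.07 and 5.41 in controls. Upstream Bmi1 was at 83.9 and 81.7 in knockout libraries against 22.5 and 26.6 in controls, and Eed at 93.5 and 93.7 against 57.1 and 67.6. Both knockout libraries placed a member above both controls for 7 of 10 gene bodies and 4 of the 9 upstream windows that could be placed. The share of all genes placed in this way was not computed, so these counts have no background to be read against.

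**Figure D4:**
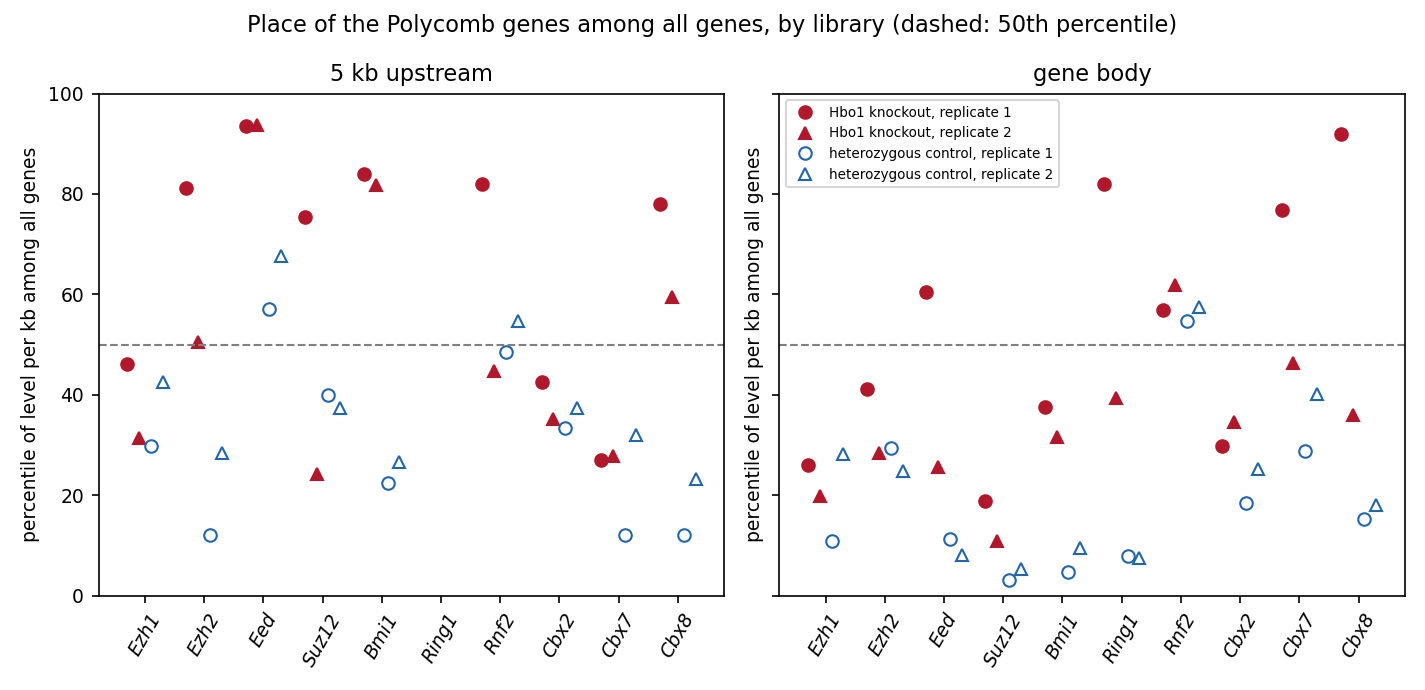
Percentile of each Polycomb gene's level per kb among all genes of the same region class, upstream and over the gene body, with 1 point per library and knockout (filled) left of control (open). Most control points lie below 50, and upstream the knockout points of Eed and Bmi1 lie above 80.

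Whether the upstream change differed from that over the gene body was tested per gene on the difference of the log2 CPM values within each library. Of 19996 genes 8.94% had a larger upstream change and 4.09% a smaller one (limma adjusted p under 0.05), and no member passed (Ezh2 and Suz12 at an unadjusted p under 0.05). With the replicate number as a block both passed, at limma adjusted p = 0.0188 for Ezh2 and 0.0235 for Suz12. Same-numbered libraries deviated in opposite directions across genes, and whether they were paired is not known. Ezh2 had upstream minus body values of 0.57 and -0.16 in knockout libraries against -1.47 and -0.51 in controls, a difference of 1.19 ± 0.40 (limma adjusted p = 0.0639) that also passed with pooled totals (1.49). Suz12 went the other way, with 1.69 and 0.60 in knockout libraries against 3.07 and 1.86 in controls, a difference of -1.32 ± 0.49 (limma adjusted p = 0.0932). The other tested members had differences from -0.65 (Cbx7) to 0.53 (Rnf2). For Kat7 the values were -2.06 and -0.58 in knockout libraries against 0.60 and 0.49 in controls, a called difference of -1.86 ± 0.43 (limma adjusted p = 0.00995) that was lost without knockout replicate 1 (-1.12, limma adjusted p = 0.0524).

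A list of 34 further Polycomb genes held not only subunits but also genes that work against Polycomb, such as Kdm6b. Of these 34, 31 were tested upstream, and 17 rose and none fell (median log2 fold 1.54). Of all genes 24.0% rose upstream, and of those with CG-rich promoters 43.1%. Over gene bodies 14 of 31 rose and none fell (0.71), against 23.1% and 36.3%, and downstream 2 of 30 rose (0.35), against 10.8% and 14.4%. DESeq2 called 15, 12 and 2 of them higher and none lower; at an unadjusted p under 0.05 none was lower upstream or over the body and 1 was lower downstream. Jarid2, a PRC2 accessory subunit, rose upstream by 2.83 ± 0.58 and Mga, a DNA-binding subunit of a variant PRC1, by 2.66 ± 0.51 upstream and 1.70 ± 0.35 over its body. Kdm6b, a demethylase that removes the PRC2 mark and so works against Polycomb, had 125 and 42.9 CPM over its body in knockout libraries against 2.37 and 4.85 CPM in controls (4.53 ± 0.40, edgeR adjusted p = 2.8e-14). Phf1, another PRC2 accessory gene, rose downstream by 2.86 ± 0.51. Of the 5 PCGF paralogs of Bmi1, Pcgf1 and Pcgf2 rose upstream and Pcgf1 over the body. Cbx6 is listed at 0 upstream and over the body, where all bases are shared with windows of other genes. Downstream Cbx6 had 57.8 and 60.7 CPM in knockout libraries against 25.8 and 50.3 CPM in controls and was not called.

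A list held 12 genes known as repressed targets of Polycomb in blood or elsewhere. None of the 11 tested upstream was called by edgeR (1 lower at an unadjusted p under 0.05, and 0 by DESeq2). Of all genes tested upstream 24.0% were called higher and 14.3% lower. Over gene bodies 2 of 7 fell and none rose, against 15.2% of all gene bodies that fell. Ebf1, a B cell factor, had 242 and 352 CPM over its body in knockout libraries against 708 and 566 CPM in controls (-1.10 ± 0.34, edgeR adjusted p = 0.00773). Pax5, another B cell factor, had 114 and 136 CPM in knockout libraries against 212 and 244 CPM in controls (-0.87 ± 0.30, edgeR adjusted p = 0.017). Downstream none of 12 was called (2 higher and 1 lower at an unadjusted p under 0.05, and 0 by DESeq2). Of all genes tested downstream 10.8% were called higher and 2.29% lower. At Cdkn2a, the cell cycle inhibitor locus that BMI1 silences, log2 folds were 0.24 upstream, 0.07 over the body and 0.83 downstream, and none passed.

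Some marker genes and the relation of level to base composition differed between the groups, and their part in the changes was not tested. The 5 LSK markers summed to 1.88 and 1.53 CPM per kb over gene bodies in knockout libraries against 1.33 and 1.28 in controls. Over gene bodies Flt3 rose (1.53 ± 0.30), while Kit, Ly6a, Cd34 and Meis1 had log2 folds of -0.02, -0.21, 0.11 and -0.04 and were not called. Upstream Flt3 (2.26 ± 0.55) and Meis1 (1.69 ± 0.54) rose by edgeR. The 9 of 10 markers of mature lineages in the table summed to 1.21 and 1.05 in knockout libraries against 1.4 and 1.21 in controls. Among these Ms4a1, a B cell marker, was listed at 0 over its gene body, all of which is shared with another gene, and had 31 and 46 counts upstream in knockout libraries against 99 and 86 in controls. Cd8a fell over its body by 1.18 on the log2 scale, and Elane, a granulocyte protease gene, rose by 2.00 ± 0.53 upstream. The 5 stroma and endothelium markers summed to 1.22 and 1.29 in knockout libraries against 1.76 and 1.49 in controls. Pdgfra and Cdh5 fell over their bodies (-0.99 ± 0.30 and -0.86 ± 0.29). Cxcl12 (-0.73), Col1a1 (0.14) and Pecam1 (0.54) were not called there, and at Pecam1 both knockout libraries lay above both controls. Receptor genes not used in blood summed to 0.309 and 0.394 in knockout libraries against 0.598 and 0.5 in controls. In such bulk counts, more mark per cell and more cells carrying it cannot be told apart. The correlation across genes between gene body level and GC content (Spearman) was 0.45 and 0.36 in knockout libraries and 0.15 and 0.22 in controls; genes are not independent replicates. With a GC correction 4 members were called upstream, Bmi1, Eed, Ezh2 and Rnf2, with Cbx7 and Cbx8 not in that fit.

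By the distance between profiles of log2 CPM over 12 values (3 classes in 4 libraries), the genes most like a member were Fech for Rnf2 (0.84), Gosr1 for Ezh1 (0.97), Cdca7 for Eed (1.01), H2-Q4 for Bmi1 (1.05) and Mtfr1l for Suz12 (1.18). Genes without a symbol, predicted genes (Gm and Rik) and genes whose 5 kb flanks overlap those of the member were passed over. No member was the nearest gene of another, though Cbx2 and Cbx8, as neighbours, could not be matched to each other.

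**Figure D5:**
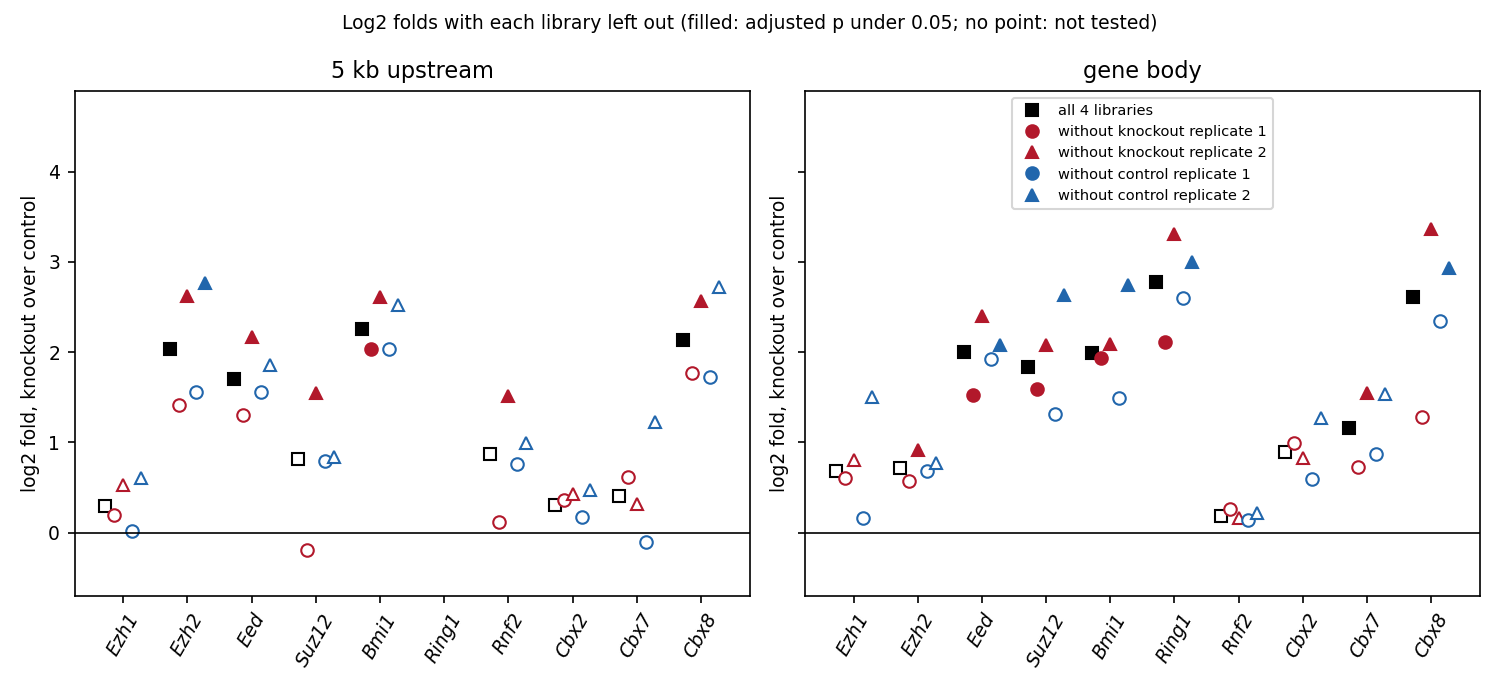
Log2 fold of each Polycomb gene with all 4 libraries and with each library left out in turn, upstream and over the gene body, with filled points for edgeR adjusted p under 0.05. Without control replicate 1 no point is filled, although upstream the values of Bmi1, Cbx8, Ezh2 and Eed stay above 1.5.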

How the data were processed

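The deposited values are raw read counts for Entrez genes in 3 kinds of region, as the authors counted them per the file headers; the submitters' processing notes name featureCounts and mm10. Not given in the sources used here were the aligner, the release of the annotation, how duplicates and reads were filtered, and whether a spike-in was added. Reads in bases shared by windows of 2 genes appear uncounted: fully shared upstream windows held 0 counts in all libraries in 86.3% of 452 genes, against 0.8% of unshared ones. Symbols, positions and promoters came from RefSeq GRCm38.p6, and for Cbx7 and Cbx8 the transcript whose span equals the deposited length was used.

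Each class was fitted over all genes with edgeR 4.0.16 (R 4.3.3; TMM, filterByExpr with a minimum count of 10, quasi-likelihood test, Benjamini-Hochberg threshold 0.05), knockout over control, with 2 libraries each and no covariate; the SE is the log2 fold over the square root of F. Differences between classes were tested with limma 3.58.1 on log2 CPM (prior count 2). The code was checked on simulated data. Alternatives were 4 other scalings, DESeq2 1.42.0, limma-trend, 2 filters, each library left out, a replicate block and a correction for GC content (loess, span 0.3); the crossed block was added after seeing the data. Whether the replicate numbers pair the libraries is not known. The text names all members, Kat7 and the neighbours in a member's windows except Cntnap1. Elane, Flt3, Meis1, Ms4a1, Cd8a, Pdgfra, Cdh5 and the remaining LSK, stroma and endothelium markers were named after their values were seen. Of the further Polycomb genes the text names, per class, up to 3 with the smallest p. A gene that this rule selects is not reported here. Members and lists were chosen with earlier results of these data known. Counts cover counting error only.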

Additional observations from a re-analysis of the deposited data

How the results depend on the processing

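The number of upstream calls was 8885 with edgeR and TMM, 3357 with a mean count of at least 50, 4353 with the replicate block and 4399 with the block and a GC correction. Over gene bodies 8195 calls became 4615 with receptor gene scaling, 5426 with the stricter filter, 3679 with the block and 3287 with the block and a GC correction. Downstream 2831 calls became 1089 with the stricter filter, and the test of upstream against gene body change gave 1229 with it. With the stricter filter Eed was the only member tested upstream, and it was called (1.99), while no member was tested downstream. With the block and a GC correction 3 members were called over gene bodies, in a fit without Cbx7 and Cbx8. With a GC correction 2 members were called downstream, again in a fit without Cbx7 and Cbx8. With 1 library left out, calls ran from 71 to 11130 upstream, 1436 to 11289 over gene bodies, 699 to 4899 downstream and 1128 to 5206 for upstream against gene body. Called members ran from 0 to 6, 0 to 7 and 0 to 2 in the 3 classes. Where a group kept 1 library, that library was assumed to vary like the other group. The cause of these changes was not tested.

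Same-numbered libraries deviated in opposite directions (correlations of -0.284 upstream, -0.359 over gene bodies and -0.22 downstream). The replicate block ended the calls of Eed upstream (1.66) and Cbx7 over its body (1.15), and a crossed block gave 11874, 12047 and 5187 calls in the 3 classes, with 2 members called downstream.

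Signs turned as follows. The downstream log2 folds of Eed and Rnf2 were 0.19 and 0.13 with receptor gene scaling. Cbx2 downstream was -0.07 with library totals, -0.14 with a GC correction and -0.09 with the block and a GC correction. The upstream minus gene body value of Eed was 0.05 with pooled totals, and that of Cbx8 was 0.31 with pooled totals and 0.27 with receptor gene scaling. With 1 library left out, log2 folds ran from -0.19 to 1.55 for Suz12 upstream, from -0.10 to 1.23 for Cbx7 upstream, from -0.52 to 0.33 for Eed downstream, from -0.44 to 0.19 for Rnf2 downstream, from -0.60 to 0.90 for Cbx2 downstream, from -1.46 to 0.32 for Kat7 downstream, from -0.16 to 0.50 for Bmi1 upstream minus gene body, from -0.14 to 1.30 for Rnf2 upstream minus gene body and from -0.57 to 0.61 for Cbx8 upstream minus gene body. Members held at most 301 reads in any window and library, which limits the precision of every value given.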
